A study of Mus musculus with 5 samples.

Results

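The genes described here are regulators that switch small GTPases of the Ras, Rap, Arf and Rab families on or off. They were chosen by symbol from an RNA-Seq table of mouse neural stem and progenitor cell (NSPC) cultures, and 94 of its 12572 symbols matched. The symbols are those of the Rasgef1, Rasgrp, Rasgrf, Rasa, Rasal, Rapgef, Sipa1, Arap, Asap, Acap, Agap, Arfgap, Arfgef, Cyth, Iqsec, Tbc1d, Rin, Rabgef, Rabep and Dennd series, together with Rabgap1, Rabgap1l and Rap1gap. These genes have 207 listed transcripts, and the values of all transcripts of a symbol were added to give a gene sum. Of the 94 gene sums, 80 had a mean of at least 50 normalized counts over the 5 libraries. The other 14 were lower, namely Arfgef3, Dennd2c, Dennd3, Rapgef5, Rapgefl1, Rasa4, Rasgef1a, Rasgrf1, Rasgrp1, Rasgrp2, Rin1, Rin3, Tbc1d2 and Tbc1d30. A normalized count is a read count divided by the authors' size factor for that library. Ring1 (a polycomb ubiquitin ligase), Rint1 and Rabepk matched by their letters and are counted here as symbol matches only.

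A small GTPase is active when it holds GTP and inactive when it holds GDP. Guanine nucleotide exchange factors (GEFs) load it with GTP, and GTPase-activating proteins (GAPs) speed up hydrolysis and switch it off. Ras and Rap proteins relay signals from growth factor receptors and adhesion sites, Arf proteins recruit vesicle coats and remodel the membrane-bound actin layer, and Rab proteins give transport vesicles and endosomes their identity. By role the members are 5 Ras GEFs, 5 Ras GAPs, 7 Rap GEFs, 5 Rap GAPs, 8 Arf GEFs, 13 Arf GAPs, 16 Rab GEFs, 30 Rab GAPs, 2 Rab effectors (Rabep1 and Rabep2) and the 3 symbol matches. The role was taken from the family name, so that Rasgrp2, known mainly as an exchange factor for Rap, stands with the Ras GEFs, and some Tbc1d proteins have no known Rab GAP activity. Rabepk, whose full name marks it as a Rab effector too, was left with the symbol matches and not counted with Rabep1 and Rabep2.

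The libraries came from untreated C57BL/6J NSPCs that were kept proliferating in medium with FGF-2 and EGF, each at 20 ng/ml. Of the 5 libraries, 2 are labelled WT (p75NTR+/+, littermates of the knockouts, replicates 1 and 4) and 3 are labelled p75NTR-/- (replicates 1, 2 and 4), a genotype in which Ngfr, the gene of the neurotrophin receptor p75NTR, is targeted. The labels give the source as E12.5 embryos, whereas the paper describes adult cells. The paper describes its RNA-Seq as 4 replicates from independent cell preparations, without saying which animals each came from. That number differs from the 2 and 3 libraries labelled here.

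The recovered depth was 11688211 to 14452396 counts per library. All 10 listed progenitor markers were measured, with 8320 to 9614 summed TPM (a level scaled for transcript length and library size), and the microglia and blood markers were not among the listed genes. Ngfr was higher under the p75NTR-/- label, the reverse of what a loss of its transcript would give. It had 0.98 and 2.08 normalized counts in the libraries labelled WT and 9.89, 140.6 and 251.4 in p75NTR-/- replicates 1, 2 and 4. Whether the targeted gene is still transcribed was not tested, so these values do not settle the genotypes. The groups are therefore called by their labels throughout. The libraries labelled WT replicate 4 and p75NTR-/- replicate 4 were close to each other and stood apart from the other 3. What the replicate numbers stand for is not given in the sources used here.

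The sequences shown first are those that separate transcripts of Tbc1d10a, Cyth1 and Rasgef1b, because the listed transcripts of these genes were divided unequally over the libraries. They come from the GENCODE transcripts on GRCm38. Tbc1d10a is a Rab GAP of microvilli and exosome secretion on chr11:4186789-4215505, plus strand. Its transcript ENSMUST00000041042 has 1957 bases and holds all 1921 bases of ENSMUST00000180088, and the 36 further bases lie at its ends. In the 2 stretches that follow, capitals mark the 33 bases at the 5′ end, which open with the annotated start codon of the longer transcript (coding begins at base 1, and at base 70 in the shorter one), and the 3 bases at the 3′ end, all absent from the shorter transcript.
Tbc1d10a first bases: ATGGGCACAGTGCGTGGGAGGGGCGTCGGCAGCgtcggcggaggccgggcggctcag
Tbc1d10a last bases: acaggcttgtgtATA

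Cyth1 encodes cytohesin-1, an exchange factor that acts on Arf proteins at the plasma membrane, and lies on chr11:118132019-118248592, minus strand. Its transcripts begin at an outer and an inner first exon, each with its own start codon. Capitals mark the coding bases of the first exon (28 at the inner and 22 at the outer start), and the 20 bases in lower case belong to the shared next exon.
Cyth1 inner start: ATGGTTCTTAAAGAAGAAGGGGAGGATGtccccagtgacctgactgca
Cyth1 outer start: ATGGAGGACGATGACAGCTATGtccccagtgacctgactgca

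Rasgef1b, an exchange factor placed with the Ras GEFs by its name alone and with a large first intron, lies on chr5:99217426-99728812, minus strand. The transcripts ENSMUST00000031276 and ENSMUST00000168092 share 2987 bases, and the former has 3 more at an exon junction, in capitals.
Rasgef1b junction with the 3 bases: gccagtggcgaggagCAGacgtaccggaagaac
Rasgef1b junction without the 3 bases: gccagtggcgaggagacgtaccggaagaac

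Promoters are shown for both Cyth1 starts and for the inner Rasgef1b start, because the use of these starts differed between libraries. They are RefSeq sequences on GRCm38.p6 (300 bases, minus strand). Capitals mark GC boxes (GGGCGG) and CCAAT boxes (CCAAT, which reads ATTGG on the other strand), searched on both strands together with TATAAA, TGACGTCA and CACGTG. No marked motifs overlap. The outer Cyth1 promoter (chr11:118248509-118248808) has 35 CpG dinucleotides and 71.3% GC, with 6 GC boxes.
Cyth1 outer promoter: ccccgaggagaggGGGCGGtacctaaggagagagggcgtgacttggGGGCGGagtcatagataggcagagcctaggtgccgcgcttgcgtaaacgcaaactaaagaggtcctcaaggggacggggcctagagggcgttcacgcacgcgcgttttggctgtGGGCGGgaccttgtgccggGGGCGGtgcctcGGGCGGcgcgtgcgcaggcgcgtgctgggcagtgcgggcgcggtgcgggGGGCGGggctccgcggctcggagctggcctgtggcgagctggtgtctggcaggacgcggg
The inner Cyth1 promoter (chr11:118212682-118212981) has 4 CpG dinucleotides and 57% GC, with 1 CCAAT box and 0 GC boxes.
Cyth1 inner promoter: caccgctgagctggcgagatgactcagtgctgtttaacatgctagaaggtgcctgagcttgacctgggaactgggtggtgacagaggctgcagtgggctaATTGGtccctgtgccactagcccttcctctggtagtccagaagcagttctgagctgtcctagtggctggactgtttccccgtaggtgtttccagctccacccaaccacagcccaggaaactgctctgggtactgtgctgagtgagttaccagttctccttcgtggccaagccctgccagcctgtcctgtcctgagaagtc
The inner Rasgef1b promoter (chr5:99252878-99253177) has 35 CpG dinucleotides and 73.3% GC, with 3 GC boxes and 1 CCAAT box.
Rasgef1b promoter: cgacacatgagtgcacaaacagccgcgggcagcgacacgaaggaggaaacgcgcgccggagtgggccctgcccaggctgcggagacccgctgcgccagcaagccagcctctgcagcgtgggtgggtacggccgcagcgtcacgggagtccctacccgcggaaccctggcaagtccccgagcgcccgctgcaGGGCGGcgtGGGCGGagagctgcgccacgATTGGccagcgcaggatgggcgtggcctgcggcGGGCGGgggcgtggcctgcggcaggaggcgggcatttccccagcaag
Of all 32851 RefSeq promoters in the table, 35.7% hold GGGCGG, 37.4% CCAAT, 13.6% TATAAA, 7.15% CACGTG and 1.79% TGACGTCA. Promoters were found for 83 of the 94 members. The 138 RefSeq promoters whose symbols fit the naming rule had a median of 64.2% GC and 23 CpG dinucleotides, against 52.7% and 7 over all promoters. These 138 were taken by symbol alone, so some may belong to genes outside the 94 members. The promoters taken by symbol were thus richer in GC than the median promoter, and the table's expressed genes were not compared separately.

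The first question was which regulators these cells express. Levels between genes were compared as summed TPM, which accounts for transcript length. The Rab GAPs together had 396 ± 17.8 summed TPM (SD, n = 5 libraries), the Arf GAPs 303 ± 11.7 and the Rab GEFs 245 ± 15.4. The Arf GEFs had 169 ± 15.5 and the Ras GAPs 133 ± 5.42. The Rap GEFs had 92.5 ± 16.5 and the Rap GAPs 77.7 ± 18.7, and these ranges overlapped. The Ras GEFs were at 7.14 ± 2.55, below the other GEF and GAP classes in every library. GAP transcripts for Ras were therefore well represented and GEF transcripts of the Rasgef1, Rasgrp and Rasgrf series were sparse.

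The highest single regulator was Dennd5a, a Rab GEF that also binds Rab6, at 100.6 ± 12.51 TPM. Its range of 86.1 to 114.2 overlapped that of Cyth2 (cytohesin-2, an Arf GEF), which had 94.3 ± 16.5 and a range of 80.6 to 116.4. Rasa3, a Ras GAP that binds inositol phosphates and phosphoinositides, followed at 80.5 ± 12.2, and its range of 66.7 to 95.1 overlapped those of both genes above it. Agap3 led the Arf GAPs at 56.4 ± 4.34, and Dennd2a, a Rab GEF linked to Rab9, was at 50.6 ± 10.2. Rapgef3 (Epac1, the cAMP-responsive exchange factor for Rap) led its class at 48.3 ± 12.7. Rap1gap, which switches Rap1 off, had 41.9 ± 21.4 and the widest relative spread of the class leaders. The levels of Agap3, Dennd2a, Rapgef3 and Rap1gap overlapped. Tbc1d13, a Rab GAP linked to Rab35, led the Rab GAPs at 33.4 ± 3.12 and overlapped Tbc1d15, a GAP linked to Rab7, at 32.9 ± 1.11. Rint1, which is no GTPase regulator by name and takes part in vesicle tethering, had 27.4 ± 6.32, and Rabep1 (rabaptin-5, a partner of active Rab5) had 24.3 ± 2.64. Rasgrp2 led the Ras GEFs at 4.22 ± 1.01.

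**Figure D1:**
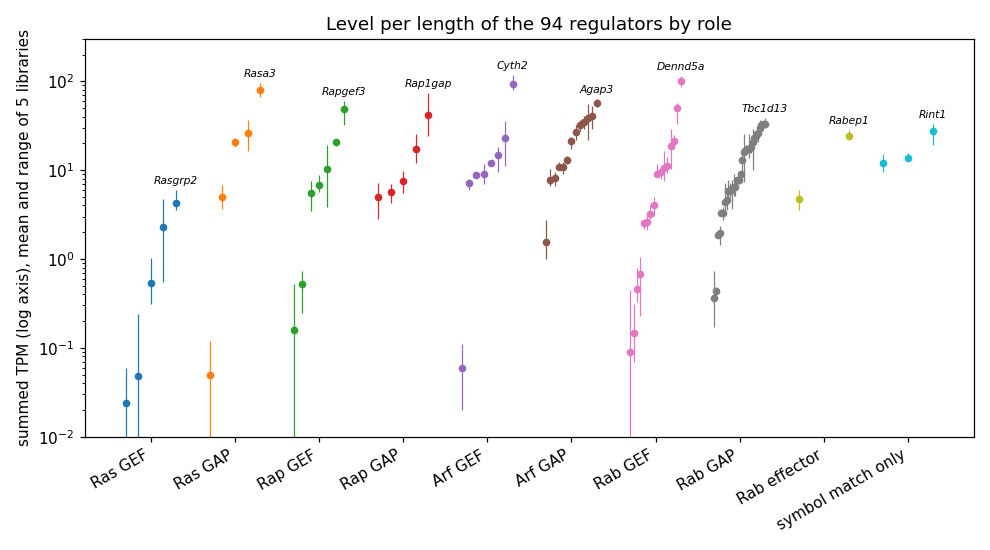
Summed TPM of each of the 94 regulators on a log axis, grouped by role. Points are means of the 5 libraries and bars run from the lowest to the highest library (values under 0.01 lie below the axis). Dennd5a, Cyth2 and Rasa3 lie at the top at 100.6, 94.3 and 80.5, and the Ras GEF class ends at 4.22.

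Most regulators varied little over the libraries. For the 80 members with a mean of at least 50, the highest library was a median of 1.47 times the lowest, against 1.52 over all 10786 gene sums of that level. It was under 1.5 times for 45 of the 80 (47.7% of all gene sums) and at least 2 times for 13 (23.1%). The steadiest was Tbc1d15, with 1555 and 1531 normalized counts in WT replicates 1 and 4 and 1532, 1402 and 1521 in p75NTR-/- replicates 1, 2 and 4. The widest were Rasgef1b at 9.46 times, Rapgef4 at 4.64 times, Rabgap1l at 3.09 times and Rap1gap at 3.00 times.

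The pairs of libraries differed unequally over the members. WT replicate 4 and p75NTR-/- replicate 4 had a median absolute difference of 0.069 on the log2 scale, and 0 of 80 members differed by 1.5-fold or more. The libraries labelled p75NTR-/- replicates 1 and 2 came next at 0.14, with 4 members. The 8 other pairs lay between 0.25 and 0.38, with 12 to 21 members. The 2 libraries labelled WT were among these, at 0.35 with 21 members. Within replicate number 1 the labels differed by a median of 0.30 and within number 4 by 0.069, and 47 of the 80 members had opposite signs in these 2 pairs.

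**Figure D2:**
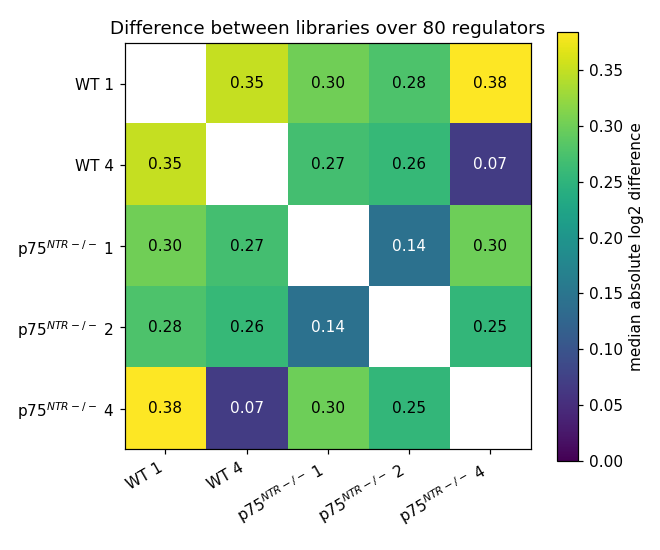
Median absolute log2 difference in normalized counts between each pair of libraries over the 80 regulators with a mean of at least 50. The darkest cell is the pair numbered 4, at 0.069, and WT replicate 1 differs from p75NTR-/- replicate 4 by 0.38.

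The study compared the genotypes to find genes that depend on p75NTR, and the comparison here is between the labels only. A gene was called if its mean was at least 50, its fold change at least 1.5 and its adjusted p under 0.05 in limma. No regulator was called, 0 of 94 gene sums, where 0.00794% of all 12588 gene sums were called. An unadjusted limma p under 0.05 was found for 1 of 94 gene sums (2.08% of all) and for 0 of the 80 with a mean of at least 50 (1.24% of all), and the lowest adjusted p was 0.934. That 1 gene sum was Arfgef3, a low member named here after its values were seen, at 2.94 and 7.28 in WT replicates 1 and 4 and 8.91, 15.6 and 9.51 in p75NTR-/- replicates 1, 2 and 4. Of the 80 members, 29 had a positive and 51 a negative log2 fold change (p75NTR-/- against WT label). Their median was -0.080, against 0.016 over all gene sums of that level, and their median absolute log2 fold change was 0.16 against 0.18. With 2 against 3 libraries an exact permutation test cannot go below p = 0.1, and these results do not show that the levels are equal. Without both libraries numbered 4, which leaves 1 library labelled WT against 2 and is given as values with no test, the log2 fold change was -0.66 for Iqsec1, 0.73 for Dennd2a and 1.69 for Rapgef4.

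Only 4 of the 80 members had a fitted log2 fold change of 1.5-fold or more, namely Rapgef4, Rasgef1b, Rabgap1l and Dennd4a, against 8.31% of all gene sums. None had labels that did not overlap at 1.5-fold in the means, where 2.76% of all gene sums did. Without a minimum fold the labels did not overlap for 8 of 80, or 10%, against 14.7% of all gene sums. Lower in every library labelled p75NTR-/- were 6 (6.96% of all gene sums), namely Arap2, Dennd1b, Iqsec1, Tbc1d14, Tbc1d32 and Tbc1d9b, and higher were 2 (7.76%), Ring1 and Tbc1d8.

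**Figure D3:**
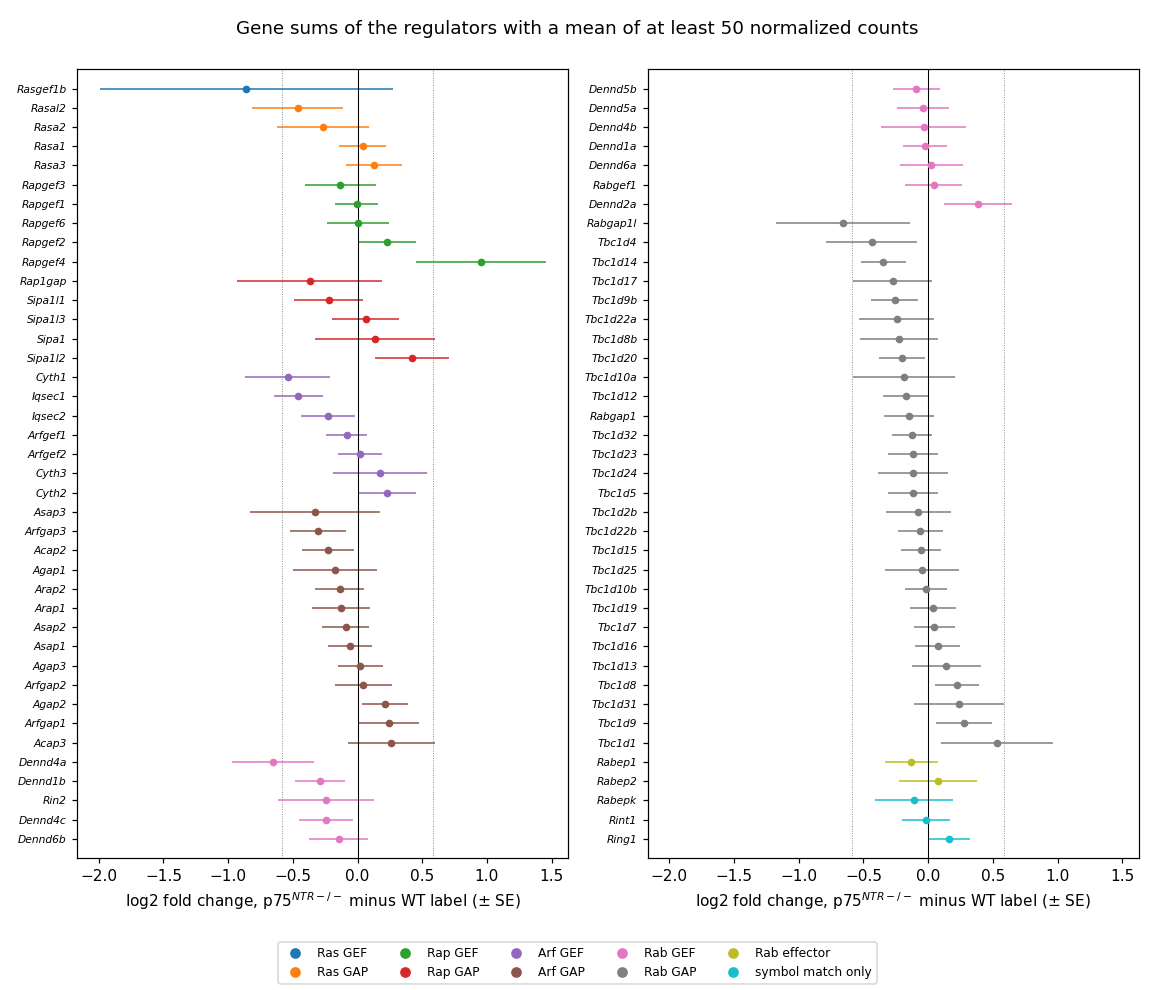
Log2 fold change of the 80 regulators between the libraries labelled p75NTR-/- (n = 3) and WT (n = 2) with its SE from limma, coloured by role. Dotted lines mark 1.5-fold, and Rapgef4, Rasgef1b, Rabgap1l and Dennd4a lie beyond them with wide bars.

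Among the Ras regulators, Rasa3 had the most positive log2 fold change of the Ras GAPs, 0.13 ± 0.22 (SE), with 4540 and 3933 normalized counts under the WT label and 4968, 5238 and 3792 under p75NTR-/-. Rasal2, a Ras GAP of the SynGAP family, had the most negative. It measured 1590 and 2006 in WT replicates 1 and 4 and 1058, 1042 and 1976 in p75NTR-/- replicates 1, 2 and 4, a log2 fold change of -0.46 ± 0.35. The 2 lowest Rasal2 libraries were those labelled p75NTR-/- replicates 1 and 2, and the libraries numbered 4 were alike. Rasgef1b was the only member classed by name as a Ras GEF with a mean of at least 50, and its log2 fold change of -0.86 ± 1.13 was smaller than its error.

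Among the Rap regulators, Rapgef4 (Epac2) had the largest fold change of all 80. It measured 249 and 586 in WT replicates 1 and 4 and 1157, 559 and 626 in p75NTR-/- replicates 1, 2 and 4. One library was low (WT replicate 1) and one high (p75NTR-/- replicate 1), and the other 3 lay close together. The log2 fold change was 0.95 ± 0.50, with 2.21 within number 1 and 0.10 within number 4. Sipa1l2, a Rap GAP found at synapses and linked to vesicle traffic, measured 1397 and 1883 against 2904, 1981 and 1778, a log2 fold change of 0.42 ± 0.29. The labels overlapped. Rap1gap had 2892 and 1002 against 1186, 2010 and 962 and a log2 fold change of -0.37 ± 0.56, the most negative of the Rap GAPs. Rapgef3 had 1240 and 746 against 910, 954 and 775, with overlapping labels.

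Among the Arf regulators, Iqsec1 (BRAG2, an Arf6 exchange factor with a part in integrin endocytosis) had the smallest unadjusted limma p of the 80 (adjusted p = 0.934). It lies on chr6:90656088-90988685 and measured 726 and 594 in WT replicates 1 and 4 and 427, 490 and 522 in p75NTR-/- replicates 1, 2 and 4. Every library labelled p75NTR-/- was lower than every library labelled WT, with a log2 fold change of -0.46 ± 0.19, -0.76 within number 1 and -0.19 within number 4. Cyth1 measured 672 and 482 against 279, 418 and 513, a log2 fold change of -0.54 ± 0.33. The library p75NTR-/- replicate 4 lay above WT replicate 4, so the labels overlapped. Cyth2 ran the other way, with 1419 and 1344 against 1915, 1704 and 1294, and also overlapped.

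Arfgap3, a GAP of Golgi vesicle coats, had 351 and 251 against 234, 222 and 264 and a log2 fold change of -0.31 ± 0.22. Asap3, a GAP of focal adhesions, was high in one library: it had 148 and 54.1 against 53.4, 97.3 and 69.7, a log2 fold change of -0.33 ± 0.50. Acap3 had the most positive value of the Arf GAPs, 0.26 ± 0.34, with 2199 and 1540 against 2698, 2588 and 1532. Arap1, an Arf GAP that the study lists by a single transcript, had gene sums of 720 and 565 against 502, 699 and 567. That transcript, ENSMUST00000084895, had 88.7 normalized counts in p75NTR-/- replicate 4 and 0 in every other library.

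Among the Rab GEFs, Dennd4a, which acts on Rab10, measured 1716 and 1027 in WT replicates 1 and 4 and 699, 799 and 1074 in p75NTR-/- replicates 1, 2 and 4. WT replicate 1 was the high library, and the pair numbered 4 lay within 0.065 of each other on the log2 scale. The log2 fold change was -0.65 ± 0.32 (within number 1, -1.30). Dennd1b, which acts on Rab35, had 160 and 138 against 129, 133 and 105, a log2 fold change of -0.29 ± 0.19, without overlap. Dennd2a had 2107 and 3488 against 3656, 3327 and 3648, a log2 fold change of 0.38 ± 0.26. Only WT replicate 1 was low.

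Rabgef1 (Rabex-5), which loads Rab5 with GTP, had gene sums of 272 and 318 against 372, 288 and 259 normalized counts, with overlapping labels. The study lists its transcript ENSMUST00000148264, which had 26.0 in WT replicate 4, 2.97 in p75NTR-/- replicate 1 and 0 in the others. The other Rab5 exchange factors named in the study were low: Rin3 had gene sums of 17.7 and 23.9 against 23.8, 42.1 and 19.0. The Rin3 transcript that the study lists, ENSMUST00000056950, had 23.9 in WT replicate 4 and 0 in every other library. Rin1 was at 0 in 4 libraries and at 17.7 in WT replicate 4, and at 0 counts a level of up to 3 counts (between 2.94 and 3.6 normalized counts) is allowed. Rabep1, the partner of active Rab5, had 1499 and 1167 against 1373, 1191 and 1080. Rabep2 had 162 and 105 against 141, 171 and 108, and was low in both libraries numbered 4.

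Among the Rab GAPs, Tbc1d14, which binds Rab11 and takes part in autophagy, measured 796 and 753 in WT replicates 1 and 4 and 540, 638 and 653 in p75NTR-/- replicates 1, 2 and 4. The labels did not overlap, with a log2 fold change of -0.35 ± 0.17. Tbc1d9b did so too, at 1665 and 1612 against 1266, 1271 and 1593, a log2 fold change of -0.26 ± 0.18, and its libraries numbered 4 lay close together. Tbc1d1, an Akt and AMPK substrate in glucose transporter traffic, had the most positive value of the class, 0.53 ± 0.43. It measured 732 and 1719 against 1430, 1394 and 2132. Rabgap1l had the most negative, -0.66 ± 0.52, with 444 and 645 against 209, 291 and 635. Of the symbol matches, Ring1 had 204 and 206 against 245, 232 and 212 and Rabepk 241 and 363 against 254, 225 and 359.

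WT replicate 1 lay alone at one end, at least 1.5-fold beyond the next library, for 8 of 80 members (10%, against 10.4% of all gene sums of that level). It was high for Asap3, Dennd4a, Rin2, Tbc1d17 and Tbc1d4 and low for Dennd2a, Rapgef4 and Tbc1d1. The library p75NTR-/- replicate 1 did so for Rapgef4 (high) and Rasgef1b (low), and the other 3 libraries for 0 members each. Without WT replicate 1, 7 of the 10 members with the smallest p had log2 fold changes smaller by over 1.5 times: -0.28 for Dennd4a, 0.34 for Rapgef4, 0.021 for Dennd2a, -0.067 for Arfgap3, 0.21 for Sipa1l2, -0.30 for Cyth1 and -0.19 for Dennd1b. Without WT replicate 4, 5 of the 10 had larger values by over 1.5 times, as -1.02 for Dennd4a and 0.75 for Dennd2a. With 2 libraries labelled WT, leaving out one or the other moves a value equally in opposite directions. Without p75NTR-/- replicate 1, 3 of the 10 moved by over 1.5 times, and without p75NTR-/- replicate 4, 1 did. Iqsec1, Tbc1d14 and Tbc1d9b moved less than that when any 1 library was left out.

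The libraries numbered 4 were compared with the other 3 as a description, since the labels share a number and nothing says what it marks. Both libraries numbered 4 lay above or both below the other 3 for 44 of 80 members (55%), against 45% of all gene sums of that level. Of these 19 were higher (23% of all) and 25 lower (22%). With a fold of at least 1.5 between the means the count was 14 (17.5%, against 14.4%), 10 higher (7.76% of all) and 4 lower (6.61%), and with 2-fold it was 3 (3.75%, against 5.11%). The astrocyte marker list had 987 and 1135 summed TPM in the libraries numbered 4 and 657 to 1657 in the others, all 6 genes measured. Of the 6, 2 were apart and higher in the libraries numbered 4, among them Gfap at 680 and 746 normalized counts against 241, 11.9 and 1.2, and the others were not, as S100b at 347 and 410 against 1421, 475 and 369. Between the labels all 6 had a negative log2 fold change (median -0.96), as had the 2 listed of 6 oligodendrocyte markers (median -1.12), and 0 were called. Their part in the result was not tested, and in bulk samples fewer cells of a type and less RNA per cell cannot be told apart.

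Rasgef1b differed most, at 159 and 151 normalized counts in WT and p75NTR-/- replicates 4 and 35.3, 16.8 and 26.4 in WT replicate 1 and p75NTR-/- replicates 1 and 2. The mean of the libraries numbered 4 was 5.92 times that of the others. Rabgap1l, with the counts given above, was 2.04 times higher. The libraries numbered 4 were alike for both genes, whatever their label.

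Tbc1d10a was 1.78 times higher (475 and 483 against 282, 245 and 280) and Sipa1, a Rap GAP that was first known as a signal-induced gene, 1.81 times higher (370 and 338 against 145, 210 and 232). The Ras GAPs Rasal2 and Rasa2 were 1.62 and 1.64 times higher, and Tbc1d1 1.62 times. Dennd4b, Rabepk and Tbc1d8b lay between 1.5 and 1.51 times. Rap1gap was 2.07 times lower in the libraries numbered 4 (1002 and 962 against 2892, 1186 and 2010). Cyth3 was 1.67 times lower, Acap3 1.62 times and Rin2 1.53 times. Of the 4 Ras GAPs at this level, Rasal2 and Rasa2 were thus higher in the libraries numbered 4, and Rasa1 and Rasa3 were lower without reaching 1.5-fold. Both directions also occurred among the Rap GAPs.

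**Figure D4:**
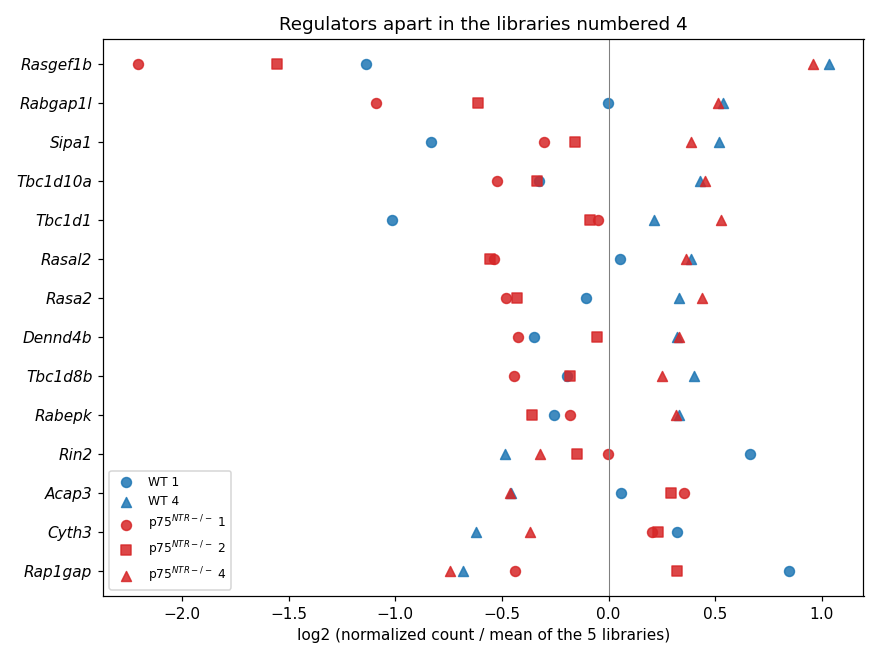
Log2 ratio of the normalized count to the 5-library mean for the 14 regulators whose libraries numbered 4 (triangles) both lie on one side of the others by 1.5-fold or more in the means. Blue is the WT and red the p75NTR-/- label, and the triangles of both colours lie close together, with Rasgef1b at the top at 5.92 times the others.

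The table's own unit is the transcript, and 62 members had 2 or more listed transcripts. No member transcript was called in limma, 0 of 207, where 0.0135% of all 22227 transcripts were called. An unadjusted limma p under 0.05 was found for 8 of 207 (3.14% of all), and the lowest adjusted p was 0.254. The study used DESeq2, and its lists give some member transcripts an adjusted p under 0.05 and others not. Those under 0.05 include Tbc1d10a ENSMUST00000041042, Tbc1d14 ENSMUST00000146430 and Cyth2 ENSMUST00000056820. The 0 calls here thus hold for limma on the libraries used here. The study differed in its test and states another number of replicates. The division of reads between near-identical transcripts is an estimate: of the 175 transcripts of these 62 genes, 56 have 0 bases of their own among all annotated transcripts and 70 have under 100 of their own among those listed.

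The lowest p belonged to the longer Tbc1d10a transcript, ENSMUST00000041042, whose ends are shown above. It was at 0 in both libraries labelled WT and at 131.6, 56.5 and 379 normalized counts in p75NTR-/- replicates 1, 2 and 4. Against a limit of 3 counts per library its estimated counts were at least 62.4-fold higher under the p75NTR-/- label (limma adjusted p = 0.254). That limit covers counting error and not the division of reads between transcripts. The bound rested on p75NTR-/- replicate 4 and was 31.0-fold without it. The shorter ENSMUST00000180088 measured 282 and 475 in WT replicates 1 and 4 and 114, 223 and 104 in p75NTR-/- replicates 1, 2 and 4, a log2 fold change of -1.40 ± 0.47. ENSMUST00000041042 was the 1 member transcript of 207 with at most 3 counts in each library of the WT label and more in every library of the other (0.486% of all transcripts). The longer transcript thus held 0% of the gene in both libraries labelled WT and 53.6%, 20.2% and 78.6% in those labelled p75NTR-/-. By counting error alone, the 0 counts allow a share of up to 1.05% (3 of 287 counts) and 0.656% (3 of 457 counts) in WT replicates 1 and 4. The Tbc1d10a gene sum did not move with it, at a log2 fold change of -0.19 ± 0.40. Only 36 bases tell the 2 listed transcripts apart, and only 3 of these are absent from every other annotated transcript of the gene. This limits how firmly the division, the fold and the shares can be read.

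Transcript shares did not overlap between the labels by 20 points or more for 4 of 171 member transcripts in genes with a mean of at least 50, against 1.08% of all such transcripts. Both Tbc1d10a transcripts were among them. The third was Rasgef1b ENSMUST00000031276, the one with the 3 extra bases, at 23.6 and 22.9 normalized counts under the WT label and 1.98, 0 and 0 under p75NTR-/-. It was the 1 member transcript with the reverse pattern (0.184% of all transcripts). It was at least 7.15-fold lower under the p75NTR-/- label, with limma adjusted p = 0.385. These are low counts, and the transcript has 0 bases of its own. Its share of the gene was 66.7% and 14.4% in WT replicates 1 and 4. Under the p75NTR-/- label the share was 11.8%, 0% and 0% in replicates 1, 2 and 4. The 0 counts allow shares of up to 13.6% and 2.1% in p75NTR-/- replicates 2 and 4. WT replicate 4 thus lay just above the other label. The fourth was Tbc1d25 ENSMUST00000172020, which had 62.8 and 79.1 against 65.3, 1.2 and 76.1. Here a single library decided the share, since p75NTR-/- replicate 2 had 98.2% of the gene in ENSMUST00000039892, a transcript at 0 in the other 4.

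Other transcripts with a small p were Rapgef3 ENSMUST00000128775, at 86.4 and 83.2 normalized counts against 121, 157 and 169 (log2 fold change 0.79 ± 0.23), and Rasal2 ENSMUST00000134543, at 104 and 121 against 40.6, 57.7 and 80.3 (-0.96 ± 0.35). Both had labels that did not overlap, and both had an adjusted p of 0.962 in limma. Rapgef2 ENSMUST00000118100, of a Rap exchange factor, had 165 and 193 against 368, 322 and 220 (0.73 ± 0.30), also without overlap. The main Rapgef4 transcript, ENSMUST00000028525, had 163 and 376 against 1050, 496 and 405 (1.26 ± 0.61), and without WT replicate 1 its log2 fold change was 0.66. Iqsec1 ENSMUST00000101151 had 262 and 227 against 193, 145 and 168, and Iqsec1 ENSMUST00000212100 had 186 and 205 against 138, 145 and 65.5. Tbc1d9b ENSMUST00000101270 had 656 and 553 against 385, 458 and 480, so that these 3 transcripts were lower in every library labelled p75NTR-/-, as their gene sums were. Arfgap2 ENSMUST00000028691 had 66.7 and 52 against 156, 177 and 63.4, with overlapping labels.

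The use of the 2 Cyth1 starts set the libraries numbered 4 apart, an observation made after the values were seen. The inner start (ENSMUST00000106302 and ENSMUST00000151165) had 198 and 239 normalized counts in WT and p75NTR-/- replicates 4 and 60.8, 0 and 38.4 in WT replicate 1 and p75NTR-/- replicates 1 and 2. This was 41% and 46.5% of the gene in the libraries numbered 4 and 9.05%, 0% and 9.19% in the others. The 0 counts in p75NTR-/- replicate 1 allow a share of up to 1.06%. The outer start had 284 and 275 in the libraries numbered 4 and 611, 279 and 380 in the others. The summed inner start, whose promoter holds 4 CpG dinucleotides, was thus higher in both libraries numbered 4 than in any other. The outer start kept the larger share in all 5. The difference lay in ENSMUST00000106302, at 186 and 221 in the libraries numbered 4 and 24.5, 0 and 20.4 in the others. ENSMUST00000151165 had 11.4 and 18.0 against 36.3, 0 and 18.0 and was not apart. Neither has bases of its own among all annotated transcripts, so their counts are estimates. Among member transcripts, 7 of 171 had shares apart in this way by 20 points or more, against 2.54% of all.

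Rasgef1b also used 2 starts, but their shares did not set the libraries numbered 4 apart. Its outer start, ENSMUST00000209346, begins at position 99728812 on chromosome 5 and had 77 and 98.3 normalized counts in WT and p75NTR-/- replicates 4. It was at 0 in both libraries numbered 1 and at 20.4 in p75NTR-/- replicate 2. This was 48.4% and 65% of the gene in the libraries numbered 4 and 77.3% in p75NTR-/- replicate 2. The inner start at position 99252927 had 82.2 and 52.8 in the libraries numbered 4 and 35.3, 16.8 and 6.01 in WT replicate 1 and p75NTR-/- replicates 1 and 2. The counts from both starts were highest in the libraries numbered 4.

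**Figure D5:**
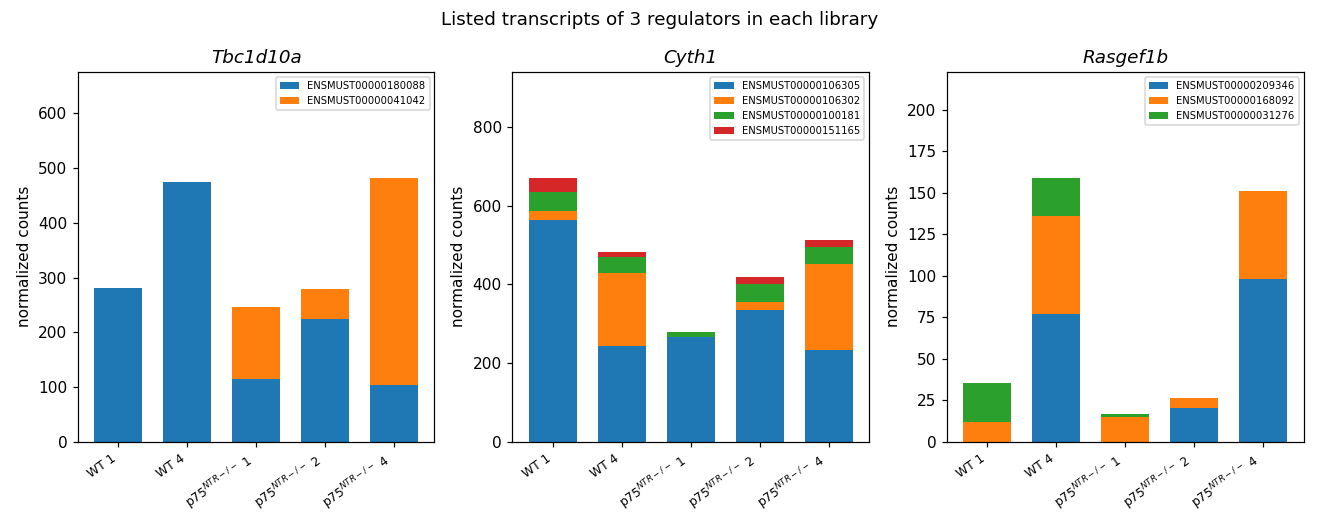
Normalized counts of every listed transcript of Tbc1d10a, Cyth1 and Rasgef1b, stacked per library. The longer Tbc1d10a transcript is at 0 in both libraries labelled WT, and the Cyth1 inner start (ENSMUST00000106302 with ENSMUST00000151165) reaches 198 and 239 in the libraries numbered 4.

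Some transcripts were counted in a single library. Of the 207, 14 (6.76%, against 1.13% of all transcripts) had more than 3 counts in 1 library and at most 3 in the others. Among them were Rabep1 ENSMUST00000178245 at 194 counts in p75NTR-/- replicate 1 and Tbc1d14 ENSMUST00000146430 at 127 counts in WT replicate 4. Dennd4b ENSMUST00000129564 had 124 counts in p75NTR-/- replicate 4, and Cyth2 ENSMUST00000211783 had 102 in WT replicate 4. The replicates of the label did not share them.

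The other genes of the pathway, GTPases and regulators outside the symbol rule, were taken from a list of 136, of which 130 were in the table and 127 had a mean of at least 50. None was called in limma, 54 had a positive and 73 a negative log2 fold change, and the median was -0.053. An unadjusted p under 0.05 was found for 2 of the 127 (1.24% of all gene sums of that level). Rab4a, which returns endocytosed cargo to the surface, had 186 and 144 normalized counts against 91.0, 67.3 and 81.4, a log2 fold change of -1.04 ± 0.22 without overlap. Bcar3, a Ras and Rap exchange factor family member at adhesion sites, had 266 and 345 against 479, 533 and 431, a log2 fold change of 0.66 ± 0.20. Both had an adjusted p of 0.934. In the other sublists the smallest p belonged to Mras, Arl4c, Psd2 and Grtp1, and of these Psd2, an Arf6 exchange factor, had 73.6 and 138 against 8.91, 14.4 and 87.7. The libraries numbered 4 lay apart without a minimum fold for 32 higher and 28 lower genes of the 127, against 23% and 22% of all gene sums.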

How the data were processed

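RNA was made into libraries with a TruSeq Stranded mRNA kit from 500 ng. The authors quantified the reads with Salmon 0.10.2 against the Ensembl GRCm38.p6 transcriptome and imported them with tximport, and the authors normalized and compared them with DESeq2 1.22.0 in R 3.6.1. The deposited table gives, per transcript and library, a signal that is a count divided by the authors' size factor plus 0.5, and a deposited TPM (also treated as a signal). Its mean, fold change and p columns are the authors' own comparison and were not used, and 0 per-sample columns were left out.

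Here 0.5 was subtracted, 303 repeated lines were dropped, and transcripts were summed per symbol. In every library 100% of the differences lay within 0.1 of a multiple of a fixed step, from which the counts and depths were recovered. limma 3.58.1 (R 4.3.3; lmFit and eBayes, Benjamini-Hochberg) was run on log2(normalized count + 1) over all 12588 gene sums and 22227 transcripts with no filter, so fold changes of low genes are understated. Errors after a log2 fold change are SE. Counts and floors cover counting error only. The fit was tested on simulated data. Transcript structures came from GENCODE M21 and promoters from RefSeq, matched by identifier and symbol.

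The members, gene lists and rule for named genes were chosen with earlier results of these data known. The text names, per role, the member with the highest TPM and the most positive and negative fold change, the 10 gene sums and 10 transcripts with the smallest p (mean of at least 50), up to 6 members per direction apart in the libraries numbered 4, transcripts with changed shares, members the study names, and the smallest p in each other list. Alternatives were other pseudocounts, filters, scaling, a replicate block, TPM and leaving out libraries.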

Additional observations from a re-analysis of the deposited data

How the results depend on the processing

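The count of called members stayed at 0 for gene sums, transcripts and the pathway list under each alternative run: pseudocounts of 0.5 and 5, minimum means of 10 and 50, TMM scaling (median shift -0.0066 on the log2 scale), the replicate block and each library left out. It was also 0 for members with no minimum mean and, for gene sums, with TPM. Leaving out both libraries numbered 4, chosen after seeing the data, leaves 1 library against 2 and says nothing about stability. The planned edgeR and DESeq2 fits were not run on these normalized values.

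Only 2 replicate numbers are shared by the labels. Deviations from the label's mean correlated at 0.256 (number 1) and 0.476 (number 4) across 10786 gene sums, which are not independent replicates. With 2 libraries labelled WT, their deviations are equal and opposite, so the crossed pairs mirrored these values at -0.256 and -0.476. The 2 values are therefore no separate checks of a pairing by number. With the replicate block 0 members were called, and the log2 fold change of Iqsec1 was -0.47 and of Rapgef4 1.15.

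Of 26 named fold changes, 21 kept their direction without a call under every alternative. Without WT replicate 1, Tbc1d1 reversed to -0.086, Rap1gap to 0.40 and Asap3 to 0.39. Without WT replicate 4, Rasgef1b reversed to 0.21 and Tbc1d10a to 0.19, and without p75NTR-/- replicate 1 Tbc1d10a was at 0.0066. Leaving out each library gave ranges of -0.086 to 1.14 for Tbc1d1, -1.93 to 0.21 for Rasgef1b, -1.13 to 0.40 for Rap1gap, -0.56 to 0.19 for Tbc1d10a and -1.04 to 0.39 for Asap3. In all, 16 of the 19 named gene sums moved by over 1.5 times or reversed when some library was left out, among them Acap3 (0.26, and 0.0027 without WT replicate 4), Rasa3 (0.13, and 0.026 without WT replicate 4) and Rabgap1l (-0.66, and -0.32 without p75NTR-/- replicate 1).

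Members without overlap between the labels were 0 at 1.5-fold, 8 with no minimum fold, and 0 to 15 when each library was left out: 3 without WT replicate 1, 15 without WT replicate 4, 1 without p75NTR-/- replicate 2 and 5 without p75NTR-/- replicate 4. Fewer libraries overlap less by construction. Changed shares fell from 4 to 2 transcripts at a minimum gene sum of 200, both of Tbc1d10a. Members apart in the libraries numbered 4 were 3 at 2-fold and, an alternative added after seeing the data, 44 with no minimum fold.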
